A study of Arabidopsis thaliana with 30 samples.

Results

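AT4G34220 and AT3G27870 are 2 of the 34262 gene identifiers in the count files of an RNA-seq series on Arabidopsis thaliana, and they were picked because their counts were lower in the hda6 mutant than in wild type at both day lengths studied. AT4G34220 is annotated as a leucine-rich repeat protein kinase family protein, and AT3G27870 as an ATPase of the E1-E2 type and of the haloacid dehalogenase-like hydrolase family. The hda6 libraries and their wild types therefore describe these genes and are given without a test, and the mutants cue1, sal1 and msh1 show how far the drop was seen elsewhere. All plants were of the Col-0 accession, were labelled as unheated, and gave leaf tissue at bolting, although the design text speaks of aboveground tissue at bolting or flowering. The day length was 12 h or 16 h. At 12 h, 1 set held wild type, cue1 and hda6, and another held sal1 with its own wild type. At 16 h, 1 set held wild type, cue1 and msh1, and another held hda6 with its own wild type. Each of the 10 groups had 3 libraries from full siblings, 30 in all. Which alleles were used is not stated in the labels, and nothing says whether each mutant was 1 line.

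HDA6 is a histone deacetylase, which removes acetyl groups from histone tails and is known in Arabidopsis for silencing transposons, repeats and ribosomal RNA genes. Receptor kinases with leucine-rich repeats carry these repeats outside the cell, cross the plasma membrane once and have a kinase domain inside, and members of the family sense peptides, hormones and microbial molecules. ATPases of the flippase branch use ATP to move phospholipids from the outer to the inner leaflet of a membrane, and they work with a beta subunit of the ALIS family. The cue1 mutant is affected in a plastid envelope translocator for phosphoenolpyruvate, sal1 in a phosphatase that breaks down the stress metabolite PAP, and msh1 in an organelle-targeted protein of the MutS DNA repair family.

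In the RefSeq annotation of build TAIR10.1, AT4G34220 spans chr4:16381473-16384468 on the minus strand, with 1 transcript of 2 exons and 2868 exonic bases. AT3G27870 spans chr3:10330547-10335490 on the plus strand, with 3 transcripts that together cover 4310 exonic bases. For both genes, 0% of the exonic bases lay under an annotated exon of the other strand. The 250 bases before each annotated start are printed 5′ to 3′ on the gene's own strand, from the RefSeq genome, because both genes moved in the same direction in hda6 and a reader may want to compare their upstream sequence. The windows are chr4:16384469-16384718 (minus strand) and chr3:10330297-10330546 (plus strand), and capitals mark a G-box, the letters CACGTG, to which bZIP and bHLH factors bind.
AT4G34220: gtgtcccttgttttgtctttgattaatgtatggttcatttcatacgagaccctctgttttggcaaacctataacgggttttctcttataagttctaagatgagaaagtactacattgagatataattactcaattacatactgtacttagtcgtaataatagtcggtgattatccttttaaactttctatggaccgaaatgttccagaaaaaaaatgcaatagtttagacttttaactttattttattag
AT3G27870: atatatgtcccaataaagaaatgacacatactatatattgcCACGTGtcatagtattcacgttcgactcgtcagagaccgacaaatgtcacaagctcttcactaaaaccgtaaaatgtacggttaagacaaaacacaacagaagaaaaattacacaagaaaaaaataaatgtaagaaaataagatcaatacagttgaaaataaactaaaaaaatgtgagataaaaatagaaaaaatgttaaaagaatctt
A and T made up 69.2% of the first window and 71.2% of the second, against a median of 68.8% over 27443 promoter windows of that length. The G-box lay 209 to 204 bases before the start of AT3G27870 and was not in the window of AT4G34220. Over all windows, 6.49% held it. The W-box core of letters TTGAC, a site of WRKY factors, was in neither window on either strand and in 44.9% of all windows. A match to TATAAA, the letters of the usual core promoter element, was also in neither, against 47.3% of all windows. Nor was the evening element core AATATCT, known from clock-controlled genes, which 10% of all windows held. A match is a description of these letters and not a binding site.

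Levels are given in CPM, which are counts scaled to a common library size, with TMM factors over all libraries. Gene counts per library were 32306939 to 33747006 in the 12 h set with hda6 and 14417942 to 22334743 in the 16 h set with hda6, and those of the other sets lay between 15632452 and 22275044. Between 2.58% and 5.78% of the counted entries fell on no gene in the 12 h hda6 set, against 48% to 49.6% in the other 3 sets, so levels set side by side across sets also differ in how the entries were assigned. HDA6 itself (AT5G63110) stood at 25 ± 0.714 CPM in hda6 and 28.2 ± 0.596 CPM in wild type at 12 h (SD, n = 3), a log2 fold change of -0.18 (edgeR adjusted p = 0.0427). Leaving out any 1 of the 6 libraries ended this call (adjusted p = 0.0556 to 0.117), as did DESeq2 (0.0556). At 16 h HDA6 was lower in hda6, at 16.2 ± 1.06 CPM against 25.5 ± 2.9 CPM (log2 fold change -0.65, edgeR adjusted p = 0.00136). Without the allele, the transcript level is a weak check of the hda6 labels. The 7 leaf genes of photosynthesis summed to between 10645 and 70237 CPM per library. The 7 floral genes summed to between 0.691 and 13.6 CPM and the 6 root genes to between 0.989 and 14.6 CPM, and the 6 stem wall genes to between 37.8 and 121 CPM.

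AT4G34220 almost disappeared from the hda6 libraries at 12 h. Its counts in wild type were 1264, 1575 and 1793, or 37.8, 50.5 and 55 CPM, and in hda6 they were 69, 40 and 60, or 2.13, 1.24 and 1.87 CPM. Every hda6 library lay far below every wild-type library, and the hda6 mean of 1.74 ± 0.46 CPM was 3.66% of the wild-type mean of 47.7 ± 8.91 CPM by the fitted ratio (SD, n = 3). The log2 fold change was -4.77 (SE 0.21, 95% interval -5.25 to -4.30), or 27.3-fold (19.7 to 37.9). Of all genes tested in this comparison, 42% were called and 19.6% were called lower, where called means an edgeR adjusted p under 0.05. At 16 h the wild type held 1981, 1449 and 1455 counts, or 94.9, 78.6 and 86.2 CPM, and hda6 held 159, 168 and 140, or 11, 11.9 and 10.6 CPM. The groups again did not overlap, with a log2 fold change of -2.95 (SE 0.11, interval -3.17 to -2.72), or 7.72-fold, which left 13% of the wild-type level. In that comparison 8.02% of all genes were called and 3.52% were called lower. The share called moved with single libraries: 1643 genes were called in all, 1082 without wild-type replicate 2, 930 without hda6 replicate 1 and 977 without hda6 replicate 3. In bulk samples such as these, fewer cells of a type and less RNA per cell cannot be told apart.

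AT3G27870 fell less, and by a like factor at both day lengths. At 12 h wild type gave 774, 653 and 586 counts, or 23.1, 20.9 and 18 CPM, and hda6 gave 251, 249 and 240, or 7.75, 7.69 and 7.47 CPM. The hda6 libraries were close together (7.64 ± 0.148 CPM) and all below the wild type (20.7 ± 2.6 CPM, SD, n = 3). The log2 fold change was -1.44 (SE 0.11, interval -1.68 to -1.19), or 2.71-fold. At 16 h wild type gave 424, 415 and 317 counts, or 20.3, 22.5 and 18.8 CPM, and hda6 gave 102, 124 and 83, or 7.06, 8.76 and 6.27 CPM. No hda6 library reached the wild-type range, and the log2 fold change was -1.47 (SE 0.14, interval -1.77 to -1.17), or 2.77-fold. In percent of wild type, 36.9% remained at 12 h and 36.1% at 16 h. Per kilobase of exon, which allows the genes to be compared, wild type at 12 h held 16.6 ± 3.11 CPM of AT4G34220 and 4.8 ± 0.603 CPM of AT3G27870. In hda6 this order was turned, with 0.608 ± 0.16 against 1.77 ± 0.0342 CPM per kilobase. At 16 h AT4G34220 stayed the higher of the pair in hda6, at 3.89 ± 0.23 against 1.71 ± 0.296 CPM per kilobase, as in wild type (30.2 ± 2.84 against 4.77 ± 0.438).

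**Figure D1:**
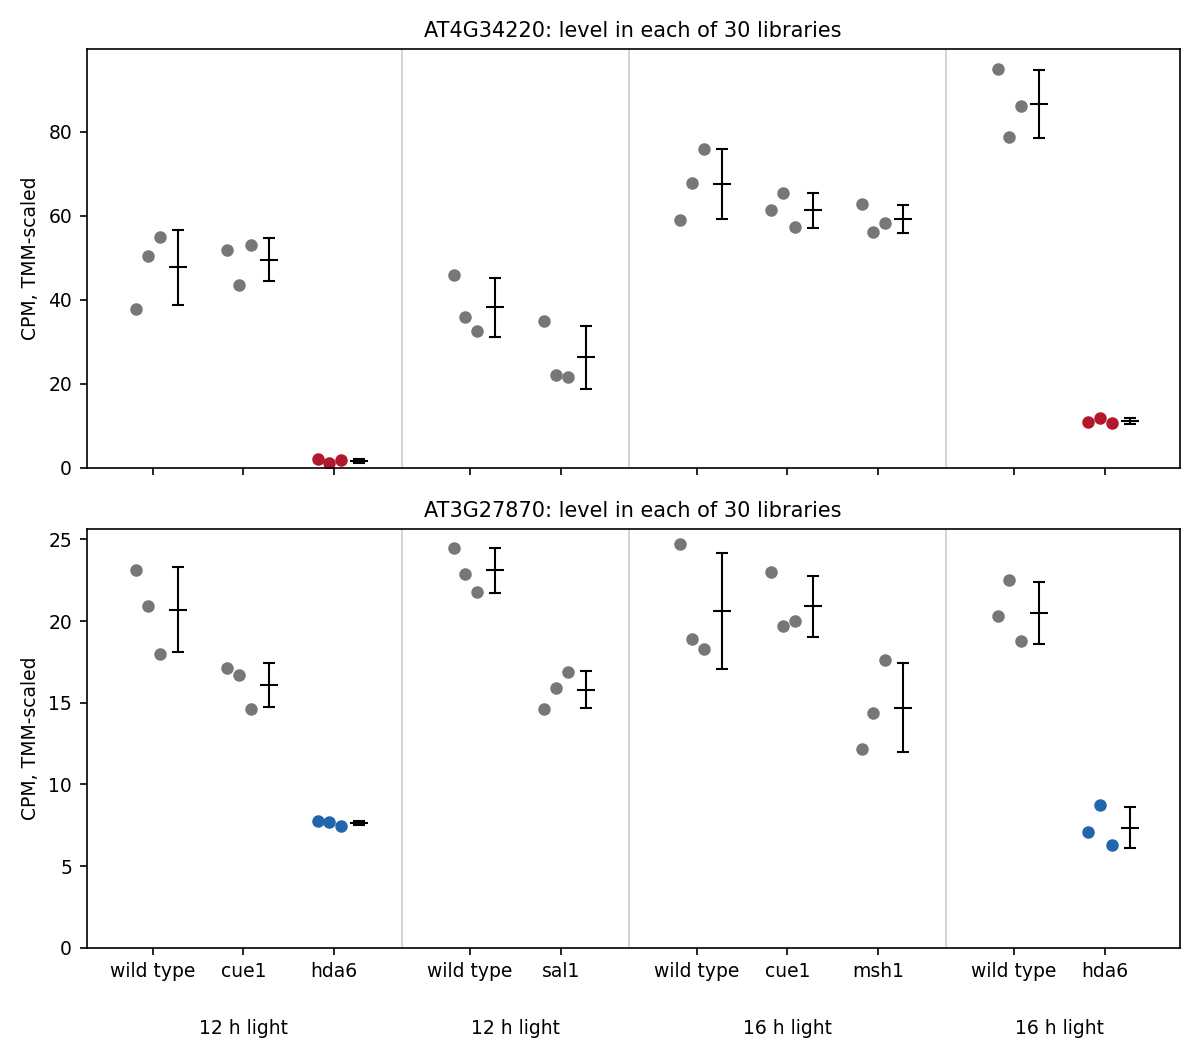
Level of AT4G34220 (upper panel) and AT3G27870 (lower panel) in CPM in each of the 30 libraries, by group and set. Points are libraries, with hda6 in colour, and the bars beside them are the mean and SD of 3 libraries. AT4G34220 lies between 1.24 and 11.9 CPM in hda6 and between 21.7 and 94.9 CPM elsewhere, and AT3G27870 between 6.27 and 8.76 CPM in hda6 and between 12.2 and 24.7 CPM elsewhere.

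The hda6 effect on AT4G34220 was smaller at 16 h than at 12 h by 1.83 on the log2 scale (SE 0.24, interval 1.3 to 2.35). For AT3G27870 the difference of the effects was -0.03 (SE 0.18, interval -0.43 to 0.36). These are descriptions, since both effects chose the genes. Day length and set cannot be told apart here, because each day length of hda6 was counted in 1 set and the share of entries on no gene differs between those sets. Outside hda6 the level of AT4G34220 also differed between the 12 h and the 16 h sets, where day length and set again cannot be told apart. The 12 libraries of wild type, cue1 and sal1 at 12 h lay between 21.7 and 55 CPM (median 40.7), and the 12 of wild type, cue1 and msh1 at 16 h lay between 56.1 and 94.9 CPM (median 64). The ranges did not overlap, but their edges were close, both with TMM factors (55 and 56.1 CPM) and with library totals alone (54 and 55 CPM). Sets of the same day length differed too. The 16 h wild types lay at 59 to 75.8 CPM in the set with msh1 and at 78.6 to 94.9 CPM in the set with hda6. Among the wild types that played no part in the choice of the genes, the level was 38.2 ± 7.01 CPM in the 12 h set with sal1 and 67.5 ± 8.4 CPM in the 16 h set with cue1 and msh1. For AT3G27870 the same libraries overlapped, at 14.6 to 24.5 CPM for 12 h and 12.2 to 24.7 CPM for 16 h.

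In cue1 and msh1 AT4G34220 stayed near its wild type. In cue1 at 12 h, which shares its wild-type libraries with hda6, the level was 51.9, 43.6 and 53 CPM and the log2 fold change 0.05 (SE 0.16, interval -0.32 to 0.42), given without a test. In cue1 at 16 h it was 61.4, 65.4 and 57.2 CPM against 59, 67.7 and 75.8 CPM in wild type (log2 fold change -0.13, SE 0.10, interval -0.35 to 0.09, edgeR adjusted p = 0.487). In msh1, with the same wild type, it was 62.7, 56.1 and 58.3 CPM (log2 fold change -0.17, SE 0.10, interval -0.39 to 0.05, edgeR adjusted p = 0.228). All of these groups overlapped with their wild type, and the lower bounds of the intervals stayed well above the hda6 values.

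The sal1 mutant gave AT4G34220 its lowest levels outside hda6. Its libraries held 899, 526 and 576 counts, or 35, 22.1 and 21.7 CPM, and the wild type of that set held 799, 661 and 773, or 46, 36 and 32.5 CPM. Replicate 1 of sal1 lay within the wild-type range and the other pair lay below it. The log2 fold change was -0.51 (SE 0.20, interval -0.98 to -0.05) and missed the threshold (edgeR adjusted p = 0.0696). Without sal1 replicate 1 it was -0.76 and called (adjusted p = 0.00622), and over the libraries left out in turn the adjusted p ranged from 0.00622 to 0.213. In 1 model over all 30 libraries it was -0.54 and called (adjusted p = 0.00898). The replicate numbers may pair the libraries of this set, which the design does not state. The hint is weak correlations between same-numbered libraries in these same data (0.112 to 0.184). Each of the 3 sal1 libraries lay below the wild type of its number. With the replicate block the log2 fold change was -0.53 (SE 0.08) and was called (edgeR adjusted p = 0.00425).

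AT3G27870 was lower in sal1 and in msh1, with log2 fold changes of -0.51 and -0.46 beside -1.44 and -1.47 in hda6, and the differences between mutants were not tested. In sal1 the counts were 376, 379 and 449, or 14.6, 15.9 and 16.9 CPM, against 425, 421 and 517, or 24.5, 22.9 and 21.8 CPM, in wild type. No sal1 library reached the wild-type range, and the log2 fold change was -0.51 (SE 0.10, interval -0.75 to -0.27, edgeR adjusted p = 0.00499). Of all genes in that comparison, 46.3% were called and 21.3% were called lower, so such a call is common there. Beside this, the leaf genes summed to 10645 to 15368 CPM in sal1 and 17977 to 26261 CPM in wild type, and the floral genes to 1.89 to 2.94 CPM and 0.691 to 1.42 CPM, and their part in the result was not tested.

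In msh1 AT3G27870 gave 243, 292 and 330 counts, or 12.2, 14.4 and 17.6 CPM, against 454, 298 and 381, or 24.7, 18.9 and 18.3 CPM, in wild type. The groups did not overlap, though the highest msh1 library and the lowest wild-type library were close. With library totals alone in place of TMM factors their ranges did overlap. The log2 fold change was -0.46 (SE 0.15, interval -0.79 to -0.13, edgeR adjusted p = 0.0334), in a comparison where 33.4% of all genes were called, 16% lower and 17.4% higher. The call rested on single libraries: the adjusted p was 0.15 without wild-type replicate 1, 0.121 without msh1 replicate 1 and 0.0906 without msh1 replicate 2. The floral genes summed to 10.4 to 13.6 CPM in msh1 and 1.92 to 3.75 CPM in wild type, and the leaf genes to 38543 to 44261 CPM and 45227 to 53854 CPM, and their part in the result was not tested.

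The cue1 mutant was counted at both day lengths. At 12 h the level of AT3G27870 was 17.1, 16.7 and 14.6 CPM, below each of the wild-type libraries shared with hda6 (log2 fold change -0.36, SE 0.10, interval -0.59 to -0.12, given without a test, where 1.85% of all genes were called, 0.542% lower and 1.3% higher). The number called there was 381 and moved to between 32 and 303 when 1 library was left out. At 16 h its level was 23, 19.7 and 20 CPM, within the wild-type range, and the log2 fold change was 0.03 (SE 0.15, interval -0.29 to 0.35, edgeR adjusted p = 0.923). The difference between the cue1 effects was not tested, since the 12 h wild type also served to choose the gene.

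**Figure D2:**
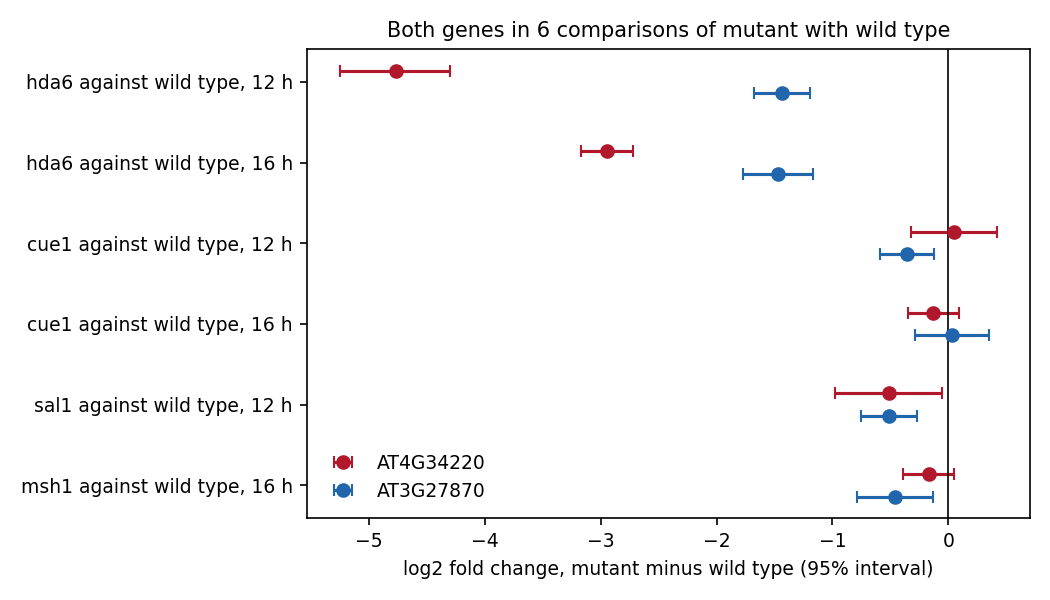
Log2 fold change of mutant against wild type (x axis) for AT4G34220 and AT3G27870 in 6 comparisons (y axis). Points are the edgeR estimates and bars their 95% intervals, with 3 libraries in each group. The hda6 values lie at -4.77 and -2.95 for AT4G34220 and at -1.44 and -1.47 for AT3G27870, and those of the other mutants between -0.51 and 0.05.

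Ordered by mean level over the 10 groups, AT4G34220 ran from hda6 at 12 h (1.74 CPM) and hda6 at 16 h (11.1 CPM) through sal1 (26.3 CPM) and its wild type (38.2 CPM) to the wild type of the 12 h hda6 set (47.7 CPM) and cue1 at 12 h (49.5 CPM). Then came msh1 (59.1 CPM), cue1 at 16 h (61.3 CPM), their wild type (67.5 CPM) and the wild type of hda6 at 16 h (86.6 CPM). Neighbours in this order did not overlap at 4 places: between the hda6 groups, between hda6 at 16 h and sal1, between cue1 at 12 h and msh1, and below the wild type of hda6 at 16 h. For AT3G27870 the order began with both hda6 groups (7.36 CPM at 16 h and 7.64 CPM at 12 h), whose ranges overlapped. A gap separated them from msh1 (14.7 CPM), sal1 (15.8 CPM) and cue1 at 12 h (16.1 CPM), and another gap separated these from the 4 wild types and cue1 at 16 h, which lay between 20.5 and 23.1 CPM. The second gap was narrow, from 17.6 CPM in the highest msh1 library to 18 CPM in the lowest wild-type library, and depended on the TMM factors. With library totals alone the sal1 mean was 19.2 CPM, inside the range of the 16 h wild types (17 to 23.1 CPM). The 6 hda6 libraries were the lowest of the 30 for both genes. The nearest library of another genotype was sal1 replicate 3 for AT4G34220 (21.7 CPM) and msh1 replicate 1 for AT3G27870 (12.2 CPM).

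Both genes were chosen by their lower counts in hda6 than in wild type at both day lengths, measured in these same libraries. Their place among the genes called lower is therefore a description and not a test of them. In all, 152 genes were called lower in hda6 at both day lengths, which is 0.781% of the 19470 genes tested at both. These made up 3.79% of the 4012 called lower at 12 h and 21.3% of the 715 called lower at 16 h. The number was 101 without replicate 2 of the 16 h wild type, 75 without replicate 1 of hda6 at 16 h and 90 without replicate 3. By the mean of the log2 fold changes AT4G34220 was first of the 152 at -3.86, ahead of the expansin EXPA16, which loosens cell walls, at -2.71. It was also first among them at each day length. AT3G27870 was 14th at -1.45, 35th at 12 h and 7th at 16 h, and the median of the 152 was -0.71. Among all genes tested, AT4G34220 had the 12th lowest log2 fold change at 12 h and the 2nd lowest at 16 h, and AT3G27870 the 537th and the 40th.

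**Figure D3:**
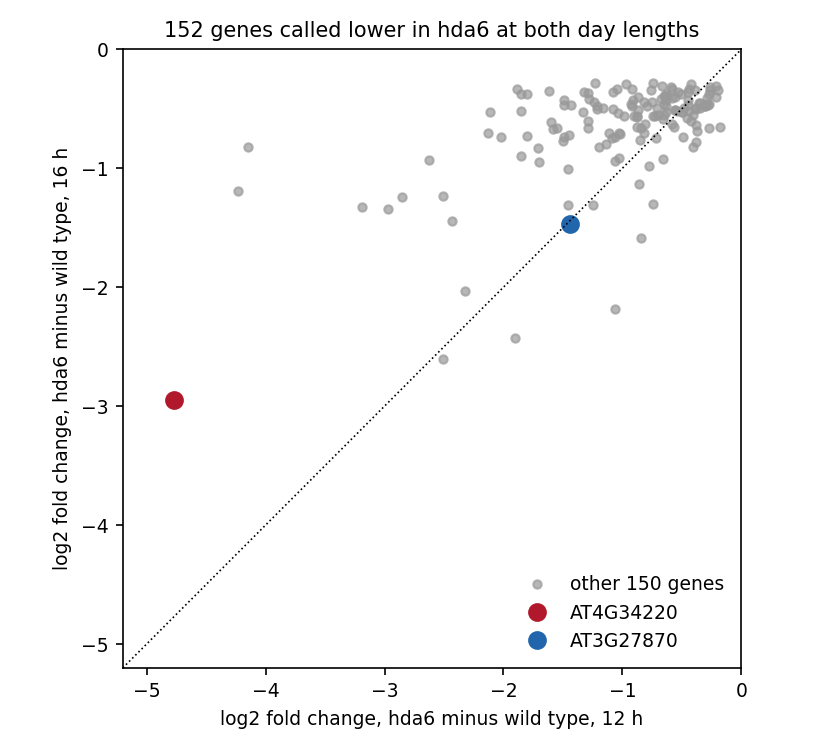
Log2 fold change of hda6 against wild type at 12 h (x axis) and 16 h (y axis) for the 152 genes called lower at both. Each point is a gene, and the dotted line marks equal effects. AT4G34220 lies alone at -4.77 and -2.95, and AT3G27870 lies near the line at -1.44 and -1.47.

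Many of the 152 genes were also lower in mutants whose libraries had no part in choosing them. In sal1, 57 were lower (37.5% of the 152 and 1.22% of the 4656 genes lower there), where 21.3% of all genes were lower, and 36 were higher (23.7%, beside 25% of all genes). In msh1, 73 were lower (48%, and 2.19% of 3327), where 16% of all genes were, and 15 were higher (9.87%, beside 17.4%). In cue1 at 16 h, 33 were lower (21.7%, and 4.65% of 710), where 3.42% of all genes were lower, 3.34% higher and 6.75% called in all, and 6 of the 152 were higher (3.95%). The cue1 comparison rests on single libraries, with 1404 genes called in all. The number was 728 when replicate 1 of the wild type was left out, 563 for replicate 2 of the wild type and 649 for replicate 3 of cue1. AT3G27870 is among the genes lower in sal1 and msh1. AT4G34220 is among the 27 genes (17.8%) called in none of these 3 comparisons without a replicate block. With the block in sal1, 60 of the 152 were lower there, 24 were called in none, and AT4G34220 was not among the 24. No test of the list was made.

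Both genes were picked for low levels in hda6, which by itself raises their correlation over libraries that include hda6. On log2(CPM + 1), less the mean of the set's wild type, Pearson's r between them was 0.878 over the 30 libraries and 0.246 over the 24 that are not hda6. The ranking that follows rests on the same hda6 values and is a description. Among 21659 genes, the one most like AT4G34220 was ABH1 (AT2G13540), the large subunit of the nuclear cap-binding complex, with r = 0.967. ABH1 fell far less in size, from 45.1 to 24.7 CPM at 12 h (log2 fold change -0.87) and from 47.4 to 33.2 CPM at 16 h (-0.51), and its log2 fold changes in the other mutants lay between -0.06 and 0.09. AT5G61190, annotated as a putative endonuclease or glycosyl hydrolase with a zinc finger, followed with r = 0.897 and log2 fold changes of -1.25 and -1.31 in hda6. Next came AT2G25420, a WD-40 repeat protein, with r = 0.881, AT3G52640, a Zn-dependent exopeptidase family protein, with 0.879, and AT3G27870. For AT3G27870 the most alike was UMAMIT2 (AT4G19185), of the transporter family that includes amino acid exporters, with r = 0.901 and log2 fold changes of -0.78 and -0.98 in hda6. AT4G34220 and AT5G61190 (0.873) came next, then AT1G34340, an alpha/beta-hydrolase, with 0.858. FRO4 (AT5G23980), a ferric reductase gene, had r = 0.853 and log2 fold changes of -1.06 and -2.18 in hda6. These correlations describe libraries that share groups and sets, and carry no p.

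The 10 other receptor kinases compared with AT4G34220 did not share a drop of its size. At 12 h 9 of them could be tested, 2 were lower and 1 higher, beside 19.6% lower and 22.4% higher over all genes (DESeq2 called 5 of the 9). The median log2 fold change was -0.45 against 0.00 over all genes tested. RLK (AT5G67280) was lower, at 33.7 ± 7.26 CPM in hda6 and 68.4 ± 5.24 CPM in wild type (log2 fold change -1.02, SE 0.16, edgeR adjusted p = 0.00134), and AT1G67510 was lower by -0.75 (SE 0.11, 0.00088). AT1G66830 was higher by 0.85 (SE 0.21, 0.011), and its count is uncertain because an exon of the other strand overlaps it. At 16 h edgeR called 0 of 10, beside 8.02% called and 3.52% called lower over all genes. For 10 genes, 0 calls is near that share. Of the 10, 1 had an unadjusted p under 0.05 and 0 were called by DESeq2. The median was -0.08 against -0.01 over all genes. RLK was also lower in msh1 (-0.66, adjusted p = 0.000183). The closest protein was AT2G15300, 68.4% identical to AT4G34220 over the longer protein. Its level was 4.68 ± 1.18 CPM in hda6 and 4.06 ± 1.37 CPM in wild type at 16 h (log2 fold change 0.21, edgeR adjusted p = 0.704), and in the 12 h hda6 set it was too low to test, at 0.196 and 0.255 CPM. That low level was seen only in the set with 2.58% to 5.78% of entries on no gene. The 12 h set with sal1 had 4.28 ± 0.583 CPM in sal1 and 4.57 ± 0.722 CPM in wild type. Wild type of the 16 h set with msh1 had 3.48 ± 0.0734 CPM. The part of how entries were assigned was not tested.

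The 11 other ATPases of the flippase family gave more higher than lower calls at 12 h. Of 9 tested, 5 were higher and 1 lower in hda6, with a median log2 fold change of 0.25 against 0.00 over all genes, of which 22.4% were called higher. AT3G25610, 63% identical to AT3G27870, rose from 29.3 ± 4.36 to 56.2 ± 7.94 CPM (log2 fold change 0.94, SE 0.15, edgeR adjusted p = 0.00154). ALA1, a flippase of the plasma membrane, rose from 155 ± 19.6 to 262 ± 40.7 CPM (0.75, SE 0.15, 0.00389). The closest protein, AT1G26130 (63.4% identical), was lower by -0.32 (adjusted p = 0.0282), but the call was lost without wild-type replicate 1 or 2 or hda6 replicate 1 or 3 (0.052 to 0.083). ALA3 (43.9% identical) was not called, with a log2 fold change of 0.09 (0.478). Of the beta subunits, 3 of 4 tested were higher, led by ALIS1 from 77.5 ± 3.45 to 142 ± 13.1 CPM (0.87, SE 0.09, 0.000193).

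At 16 h the same ATPases showed 1 lower and 0 higher of 10 tested, where 3.52% of all genes were called lower and 4.49% higher. Their median log2 fold change was -0.20 against -0.01 over all genes. Of the 10, 3 had an unadjusted p under 0.05 and DESeq2 called 1. The call was AT1G13210 (-0.54, edgeR adjusted p = 0.0199), which was lost without wild-type replicate 2, hda6 replicate 1 or hda6 replicate 3 (0.093, 0.0727 and 0.133). It was also lost in 1 model over all 30 libraries (0.0817). At 12 h the same gene was among those higher in hda6 (0.59, SE 0.14, edgeR adjusted p = 0.009). AT3G25610 had -0.60 and ALA1 -0.17 there, neither of them called (0.0576 and 0.425). Among the beta subunits edgeR called 0 of 4, with 1 at an unadjusted p under 0.05 and 0 called by DESeq2. In sal1, where AT3G27870 was lower, 4 of 11 ATPases were higher and 0 lower (5 at an unadjusted p under 0.05, and 4 called by DESeq2), beside 25% higher and 21.3% lower over all genes. With the replicate block the count became 2 higher and 1 lower, with ALA1 at -0.40 (adjusted p = 0.0277). The largest change was that of AT3G13900, at 14.4 ± 2.55 against 1.73 ± 0.454 CPM (log2 fold change 3.10, adjusted p = 5.7e-05). Its level was 0.0805 CPM in wild type of the 12 h hda6 set, and the part of how entries were assigned was not tested. In msh1 1 of 10 was lower, AT1G72700 (-0.68, adjusted p = 0.00369), where 16% of all genes were lower.

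**Figure D4:**
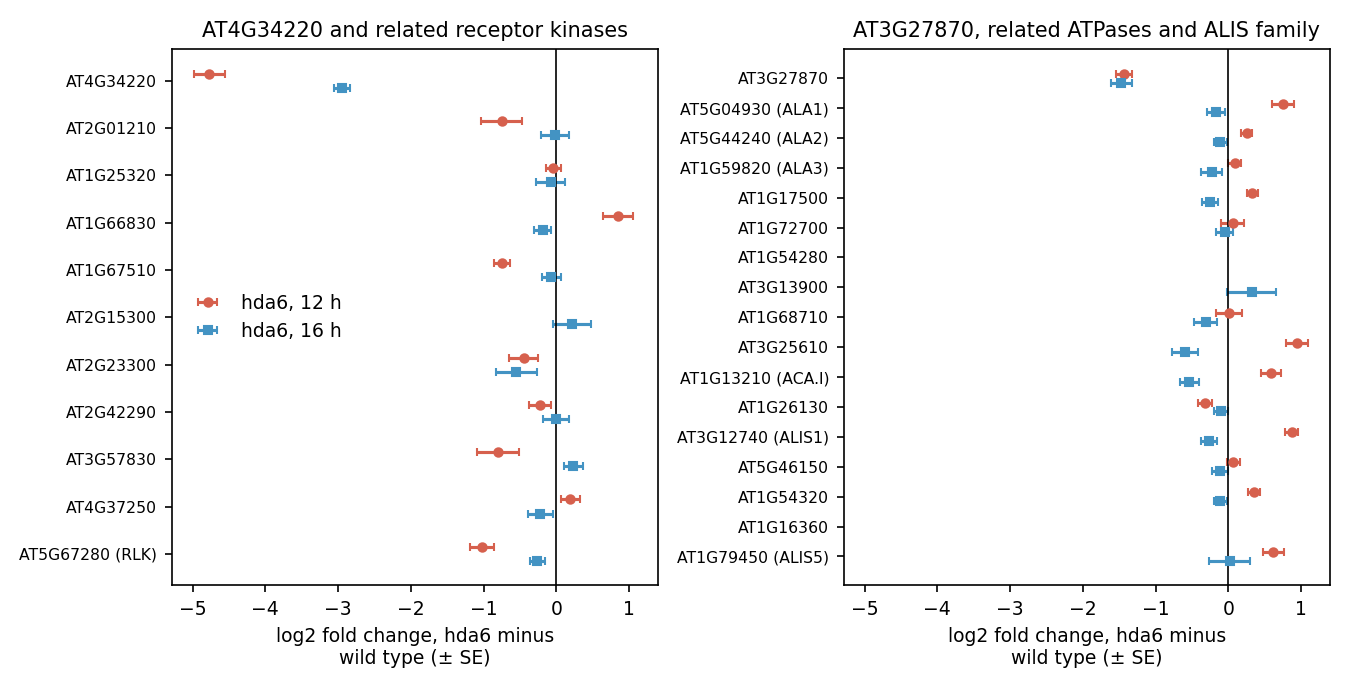
Log2 fold change of hda6 against wild type (x axis) at 12 h and 16 h for AT4G34220 with 10 related receptor kinases (left) and AT3G27870 with 11 related ATPases and 5 ALIS genes (right). Points are edgeR estimates, bars are SE, and a gene too low to test has no point. Both genes lie to the left of their relatives, which lie between -1.02 and 0.94.

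The tested genes beside AT4G34220 on the chromosome had log2 fold changes in hda6 of -0.95 to 0.82, against -4.77 and -2.95 for AT4G34220. AT4G34215, a putative carbohydrate esterase gene 23 bases downstream on the same strand, had 23.7 ± 1.81 CPM in hda6 and 27.5 ± 0.393 CPM in wild type at 12 h (log2 fold change -0.22, SE 0.08, edgeR adjusted p = 0.0517), and -0.15 at 16 h (0.409). Of the 5 genes on each side, 8 could be tested. At 12 h 3 were lower and 2 higher, where 42% of all genes were called. Among the lower were KCS16, a fatty acid elongation enzyme gene (-0.95, edgeR adjusted p = 0.00256), and FUC95A, a fucosidase gene (-0.86, 0.0009). The higher were AT4G34180, of the cyclase family (0.82, 0.000349), and CAD5, of lignin synthesis (0.60, 0.00363). At 16 h, where 8.02% of all genes were called, 1 was higher, FUC95A (0.40, 0.0156), and that call was lost without wild-type replicate 2, hda6 replicate 1 or hda6 replicate 3 (0.0525, 0.0897 and 0.0737). Beside AT3G27870, edgeR called 0 of 5 tested neighbours at 12 h and 0 of 4 at 16 h, with 0 at an unadjusted p under 0.05 and 0 called by DESeq2 each time. Their log2 fold changes lay between -0.32 and 0.11 at 12 h and between -0.23 and 0.53 at 16 h. The 4 genes just before AT3G27870 are annotated as snoRNAs and had no counts in any library. In sal1 AT3G27860, of the Tudor/PWWP/MBT superfamily and 2223 bases before AT3G27870, was higher (10.2 ± 1.23 against 0.58 ± 0.0982 CPM, log2 fold change 4.16, edgeR adjusted p = 8.36e-06), while AT3G27870 itself was lower.

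**Figure D5:**
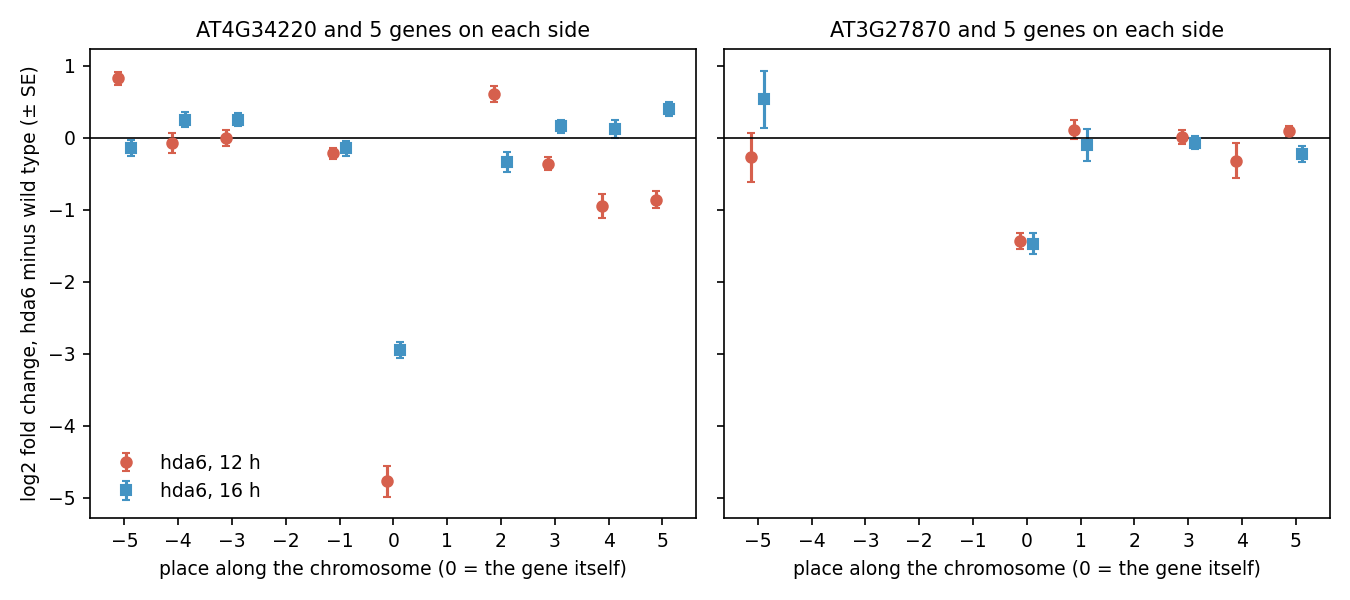
Log2 fold change of hda6 against wild type (y axis) at 12 h and 16 h for each gene (place 0) and the 5 genes on each side in chromosome order (x axis). Points are edgeR estimates, bars are SE, and a gene too low to test has no point. The drop at place 0 is -4.77 and -2.95 for AT4G34220 and -1.44 and -1.47 for AT3G27870, and the neighbours lie between -0.95 and 0.82.

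Some markers of tissue type differed between hda6 and wild type at 12 h. The 6 root genes summed to 10.3 to 14.6 CPM in hda6 and 2.63 to 5.77 CPM in wild type, with 1 and 2 of the 6 at 0 in every library of the group. That difference was carried by the phosphate transporter gene PHT1;4, at 11.9 ± 2.21 against 3.31 ± 1.83 CPM (edgeR adjusted p = 0.00238), the only 1 of the 6 called. Of the 6, 2 could be tested, and 22.4% of all genes were called higher. The nitrate transporter gene NRT2:1 had 0.682 against 0.775 CPM, and the other 4 were at or below 0.0516 CPM. At 16 h the root genes summed to 0.989 to 1.96 CPM and 1.24 to 1.95 CPM, with 2 at 0 in both. The floral genes summed to 2.58 to 3.8 CPM in hda6 and 1.62 to 2 CPM in wild type at 12 h, and to 2.97 to 6.78 CPM and 2.35 to 3.85 CPM at 16 h. Of 4 floral genes tested at 12 h, PI (log2 fold change 2.08, edgeR adjusted p = 0.0176) and SEP1 (2.31, 0.0313) were higher. Their levels in hda6 were 0.619 and 0.423 CPM. Of the 6 stem wall genes, 1 was higher at 12 h, NST1 (1.87, 0.0322), and none was lower. The stem sums overlapped, at 37.8 to 71.1 CPM in hda6 and 57.7 to 72.2 CPM in wild type. At 16 h edgeR called 0 of 2 floral and 0 of 5 stem wall genes tested. The summed leaf genes overlapped between the groups at both day lengths (30256 to 35321 against 29921 to 42496 CPM at 12 h, and 65165 to 70237 against 53547 to 65547 CPM at 16 h). Of the 7 leaf genes, 2 were lower in hda6 at 12 h: LHCB2.1, of the light-harvesting antenna (log2 fold change -1.58, edgeR adjusted p = 0.00241), and RBCS2B, a small subunit of Rubisco (-0.51, 0.0266). Over all genes 19.6% were called lower there. At 16 h edgeR called 0 of the 7 and 8.02% of all genes. Of the 7, 4 had an unadjusted p under 0.05, and 4 were called by DESeq2, which called 1661 genes in all. The leaf genes leaned higher in hda6 at 16 h, with a median log2 fold change of 0.29 against -0.01 over all genes. They ranged there from -0.12 (RBCS2B) to 0.34 (GAPA), and at 12 h the median was -0.21 against 0.00. The part of these markers in the drop of both genes was not tested.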

How the data were processed

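RNA was measured in 30 libraries of Arabidopsis leaf tissue. Per the submitters' processing notes, Trim Galore 0.6.6, cutadapt 2.8 and STAR 2.7.10a were used with build TAIR10 on 150-base read pairs. Whole-number counts per gene were deposited, 1 file per library. No source used here names the counting tool or the strand setting, and whether that setting matched the library kit in the 3 sets with 48% to 49.6% of entries on no gene was not tested. The labels give total RNA as the molecule, while their extraction text names a kit for DNA. All 32548 nuclear identifiers were found in the RefSeq annotation. Totals that name no gene were left out of library sizes (2.58% to 49.6% of entries on no gene).

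Each of the 4 sets was fitted by itself in edgeR 4.0.16 (R 4.3.3), after filterByExpr with a minimum count of 10 and TMM scaling, with the quasi-likelihood F test and Benjamini-Hochberg adjustment over all tested genes. The threshold for a call was an adjusted p of 0.05. Standard errors are log2 fold changes divided by the square root of F. DESeq2 1.42.0, a replicate block, other filters, scalings and sample sets, and leaving out each library were alternatives. No main fit held a replicate block. For the sal1 set the block is reported beside the main values. There the residuals of same-numbered libraries correlated weakly in all 3 pairs (0.112 to 0.184), a hint from these data only. All p-values measure the spread between sibling samples. No pair of replicates held identical counts (0 of 30), and every pair differed by more than sampling noise (lowest mean chi-square 4.44 per gene).

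The genes and gene lists were chosen with earlier results of these data known. Text names the 5 genes most like each gene (mean of at least 1 CPM in 1 group), the list members called or with the largest change, the closest protein, and the lowest genes at both day lengths. Protein identity came from a global alignment of translated coding sequences (gap penalties 11 and 1). Sequence windows hold 250 bases before the start, and bases after it were left out. The method was also run on simulated data with 200 genes changed. Far more were called in these data (10110 in sal1), so that run cannot show that these calls hold.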

Additional observations from a re-analysis of the deposited data

How the results depend on the processing

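The hda6 values of both genes kept their sign in every alternative run. With 1 library left out, AT4G34220 ranged from -4.94 to -4.58 at 12 h and -3 to -2.87 at 16 h, AT3G27870 from -1.54 to -1.35 and -1.61 to -1.37, and the differences between day lengths from 1.63 to 1.99 and from -0.16 to 0.08. AT3G27870 in sal1 stayed called in all alternatives run (adjusted p = 0.0101 to 0.0193 with 1 library left out). AT4G34220 in sal1 (-0.51, not called) became called with the replicate block (-0.53, adjusted p = 0.00425), in 1 model over 30 libraries (-0.54, 0.00898) and without sal1 replicate 1, with a range of -0.76 to -0.35. AT3G27870 in msh1 (-0.46) lost its call with the replicate block (-0.45, 0.0576) and ranged from -0.62 to -0.32. AT4G34220 in cue1 at 12 h ranged from -0.09 to 0.15, changing sign without wild-type replicate 1 (-0.09) or cue1 replicate 3 (-0.01). AT3G27870 in cue1 at 16 h ranged from -0.04 to 0.18, at -0.04 without wild-type replicate 2 or 3 or cue1 replicate 1. The cause of these changes was not tested, beyond the smaller number of samples.

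Genes called in hda6 at 16 h went from 1643 to 2743 with the replicate block and ranged from 930 to 2125 with 1 library left out. In cue1 at 12 h 381 became 1164 with DESeq2, 168 with the block, 166 with only the groups compared and 656 in 1 model, and ranged from 32 to 303. In cue1 at 16 h 1404 became 921 with only the groups compared and ranged from 563 to 1685. Genes lower in hda6 at both day lengths (152) ranged from 75 to 152 with 1 library left out and from 114 to 199 under the other alternatives.

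In no set was the replicate block part of the main values. The 3 sets without sal1 had residual correlations between same-numbered libraries of -0.453 to 0.127 (12 h set with hda6), -0.197 to 0.0756 (set with msh1) and 0.0321 to 0.144 (16 h set with hda6). In the last set, as in the sal1 set, each of 6 libraries correlated best with its own number in the other group. In both sets this is a hint from the data and not the design. In sal1 the block left AT3G27870 called (adjusted p = 0.0116), and changed calls among its relatives as reported there. With library totals alone the mean of AT4G34220 in hda6 at 16 h was 10.2 CPM, and that of AT3G27870 was 7.44 CPM in hda6 at 12 h, 19.2 CPM in sal1 and 26.3 CPM in its wild type. Alternatives for named relatives and neighbours, for library totals and for the count at both day lengths were chosen after seeing the data. With 40 to 69 counts in hda6 at 12 h, the fold of AT4G34220 there is the least precise of the 4.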
